A study of Mus musculus with 4 samples.

Results

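The genes described here are 10 mouse genes of dietary fat and vitamin A handling: Fabp1, Fabp2, Cd36, Dgat1, Mttp, Apob, Apoa1, Apoa4, Apoc3 and Rbp2. They were taken as a list by name from 32285 features counted, with no threshold on a measured value, and all 10 were found in the files. The list was chosen with earlier results of these data known. The samples were 4 single-cell RNA libraries of sorted small intestinal epithelium from mice aged 25 weeks. The TrnA mutant group, with n = 2, carried G5081A, a point mutation of the alanine transfer RNA gene of the mitochondrial genome (TrnA), at a mutation load of 77% (mutant 1) and 81% (mutant 2). The wild type group, with n = 2, carried no mutation named in the labels. The labels do not say whether a library came from 1 mouse or from several, so p-values of genotype tests measure the spread between these libraries. Tests between villus zones or intestinal regions had a term for each library. Their p-values measure how ratios within these libraries varied. Mutant 1 and wild type 1 form set A, and mutant 2 and wild type 2, titled male, form set B. The sets were also counted with different versions of Cell Ranger. The genotype tests reported here do not include the set as a term, and differences within each set are printed beside them.

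Dietary fatty acids enter enterocytes, the absorptive cells of the villus, and are bound in the cytosol by fatty acid binding proteins. They are re-esterified to triglyceride at the endoplasmic reticulum, loaded onto apolipoprotein B by the microsomal triglyceride transfer protein, and secreted as chylomicrons that carry further apolipoproteins on their surface. Retinol and its aldehyde are bound by their own cytosolic protein and leave the cell as retinyl esters in the same particles. Cells move from the bottom of the villus to its tip as they age, and the small intestine differs from its proximal to its distal end.

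In mm10 coordinates from the GENCODE vM21 annotation, 3 of the genes are neighbours on chromosome 9, namely Apoa1 (chr9:46228580-46230466, plus strand), Apoc3 (chr9:46232933-46235636, minus strand) and Apoa4 (chr9:46240696-46243459, plus strand), with 2466 bases between Apoa1 and Apoc3 and 5059 bases between Apoc3 and Apoa4. Rbp2 lies farther along the same chromosome (chr9:98486115-98509781, plus strand). The others are Fabp1 (chr6:71199827-71205023, plus strand), Fabp2 (chr3:122895072-122899506, plus strand), Mttp (chr3:138089854-138144968, minus strand), Cd36 (chr5:17781690-17888801, minus strand), Apob (chr12:7977648-8016835, plus strand) and Dgat1 (chr15:76502015-76511953, minus strand). Genes annotated on the other strand overlap Fabp2, Apoa4 and Mttp, and Gm37113 overlaps Rbp2 on its own strand. How counting treated strand and shared reads is not given in the sources used here, so the counts of these 4 genes are less certain.

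Promoter sequences of RefSeq (build GRCm38.p6, 250 bases before to 50 bases after the start) matched 8 of the 10 genes by symbol. The 4 shown belong to the 3 genes whose villus pattern differed most between intestinal regions (Fabp1, Rbp2, Apoa4) and to Apob, whose level did not pass the test between regions. Capitals mark matches, on either strand, to CAAAGTTCA or CAAAGTCCA, forms of the site bound by HNF4 factors, to AGATAA, a site of the Gata4 family, or to a site of the CDX family with the letters TTTATG. These factors are known regulators of intestinal genes.
Fabp1, chr6:71199629-71199928, plus strand: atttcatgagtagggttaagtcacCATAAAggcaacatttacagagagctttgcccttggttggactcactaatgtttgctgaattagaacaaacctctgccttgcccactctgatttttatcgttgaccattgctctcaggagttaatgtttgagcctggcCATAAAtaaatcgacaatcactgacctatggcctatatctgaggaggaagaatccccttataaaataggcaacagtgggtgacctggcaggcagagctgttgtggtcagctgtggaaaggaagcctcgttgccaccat
Rbp2, chr9:98490287-98490586, plus strand: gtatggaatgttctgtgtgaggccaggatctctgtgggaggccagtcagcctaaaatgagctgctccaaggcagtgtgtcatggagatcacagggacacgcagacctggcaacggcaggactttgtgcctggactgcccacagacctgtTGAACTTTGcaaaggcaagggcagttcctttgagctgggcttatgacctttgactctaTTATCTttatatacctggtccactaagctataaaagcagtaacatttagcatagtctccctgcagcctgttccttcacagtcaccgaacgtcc
Apoa4, chr9:46240594-46240893, plus strand: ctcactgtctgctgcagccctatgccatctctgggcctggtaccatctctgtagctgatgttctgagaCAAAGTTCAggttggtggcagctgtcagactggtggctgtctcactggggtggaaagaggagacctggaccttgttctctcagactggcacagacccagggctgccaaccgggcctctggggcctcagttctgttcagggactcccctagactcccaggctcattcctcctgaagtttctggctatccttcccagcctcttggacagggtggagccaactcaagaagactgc
Apob, chr12:7977427-7977726, plus strand: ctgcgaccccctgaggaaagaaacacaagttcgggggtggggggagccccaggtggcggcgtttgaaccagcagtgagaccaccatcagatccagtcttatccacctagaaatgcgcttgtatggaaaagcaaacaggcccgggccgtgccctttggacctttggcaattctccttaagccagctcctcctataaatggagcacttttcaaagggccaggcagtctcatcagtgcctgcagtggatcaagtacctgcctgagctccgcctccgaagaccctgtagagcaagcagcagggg
CAAAGTTCA was present in 2 of the 8 promoters (Rbp2 on the other strand and Apoa4 on the printed strand), against 0.39% of 32851 promoters. CAAAGTCCA was present in 0 of the 8, against 0.475% of all promoters. AGATAA was present in 1 of the 8 (Rbp2, on the other strand), against 11.2%, and TTTATG in 2 of the 8 (Fabp1, on the other strand in 2 places, and Cd36), against 11.9%. The windows of Rbp2, Cd36 and Mttp used here lie wholly inside these genes as GENCODE annotates them. Apoa1 and Fabp2, whose villus pattern also differed between regions, held no match. The matches describe letters in these windows and nothing about binding.

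After filters, 4300 to 10284 cells per library were kept, with medians of 9484.5 to 20415.5 UMIs (unique molecular identifiers, each standing for 1 captured RNA molecule) per cell. Libraries shared 26 to 60 barcodes per pair, of which 8 to 28 passed the filters in both. Cells were clustered without the 10 genes and without 56 other genes of the pathway, so that these genes did not shape the clusters. Enterocytes were 3 of 22 clusters, with 5, 7 and 9 of 23 enterocyte markers (such as Sis, Slc5a1, Lct and Slc10a2) among their 50 leading genes. They held 1091 and 2367 cells in mutants 1 and 2 and 840 and 2038 cells in wild types 1 and 2. A further cluster of 950 cells was led by Slc28a2, Nt5e and Ada, genes known from the villus tip, with a median of 2284 UMIs per cell. It held 0 enterocyte markers among its 50 leading genes, so it stays unnamed and is called the tip-gene cluster. In clusters from values centred within libraries, the cluster led by these genes held 3201 cells and 3 enterocyte markers (Alpi, Slc15a1 and Slc6a19). Fewer RNA molecules per cell and a different mix of cells within a class cannot be told apart in such sums. Levels are given as CPM, the UMIs of a gene in every 1e6 UMIs summed over the cells of a library. The libraries were made from the 3' ends of RNA, so CPM counts molecules and does not need a correction for gene length.

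The 10 genes together made up 3.13% and 3.90% of all UMIs in enterocytes of mutants 1 and 2, and 2.53% and 3.89% in those of wild types 1 and 2. In absorptive progenitor-like cells, which precede enterocytes, they made up 0.200% and 0.476% in the mutants and 0.154% and 0.477% in the wild types. In the tip-gene cluster they made up 5.78% and 5.42% in the mutants and 5.33% and 3.54% in the wild types. Fabp2, the intestinal fatty acid binding protein, and Apoa1, a surface apolipoprotein of chylomicrons and high-density lipoprotein, had the highest levels in enterocytes, at 10020 ± 1132 and 9593 ± 676 CPM (SD, n = 4 libraries). Fabp1, the liver-type fatty acid binding protein, followed at 6245 ± 3617 CPM, and its range of 1455 to 9339 CPM overlapped that of Fabp2 (8765 to 11140 CPM). Rbp2, which binds retinol and retinal, was at 3011 ± 1454 CPM. Apoa4, another surface apolipoprotein, and Apob, the structural protein of the chylomicron, did not differ beyond their spread, at 1421 ± 794 and 1410 ± 369 CPM. Apoc3, known for inhibiting lipoprotein lipase in blood, was at 860 ± 301 CPM, Mttp, the transfer protein that lipidates Apob, at 663 ± 170 CPM, and Dgat1, which makes triglyceride from diacylglycerol, at 379 ± 73.6 CPM. Cd36, a membrane protein that takes up fatty acids, was lowest at 30.6 ± 17.9 CPM.

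Outside the absorptive cells the levels were low but not all alike. The T cell or intraepithelial lymphocyte-like cells (13 to 62 per library) should lack most of these transcripts, and they held 85 ± 49.7 CPM of Fabp1, 310 ± 158 CPM of Fabp2 and 214 ± 80 CPM of Apoa1, a level that free RNA in the droplets can give. Their median depth was 2915 UMIs per cell, against 3382 UMIs in enterocytes. Fabp1 reached 1047 ± 771 CPM in tuft-like cells, with a lowest library of 319 CPM that was above the highest lymphocyte-like library (148 CPM). Rbp2 reached 362.6 ± 136.5 CPM in enteroendocrine-like cells. Its lowest library there was at 246.4 CPM, above the highest lymphocyte-like library (113.2 CPM). Fabp2 reached 956 ± 131 CPM in goblet-like cells, with a lowest library of 839 CPM against a highest of 426 CPM in the lymphocyte-like cells. In the same goblet-like cells Apoa1 was at 122 ± 61.1 CPM, below its level in the lymphocyte-like cells, which counts as background. These are descriptions, with no test, since classes of cells come from the same libraries.

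**Figure D1:**
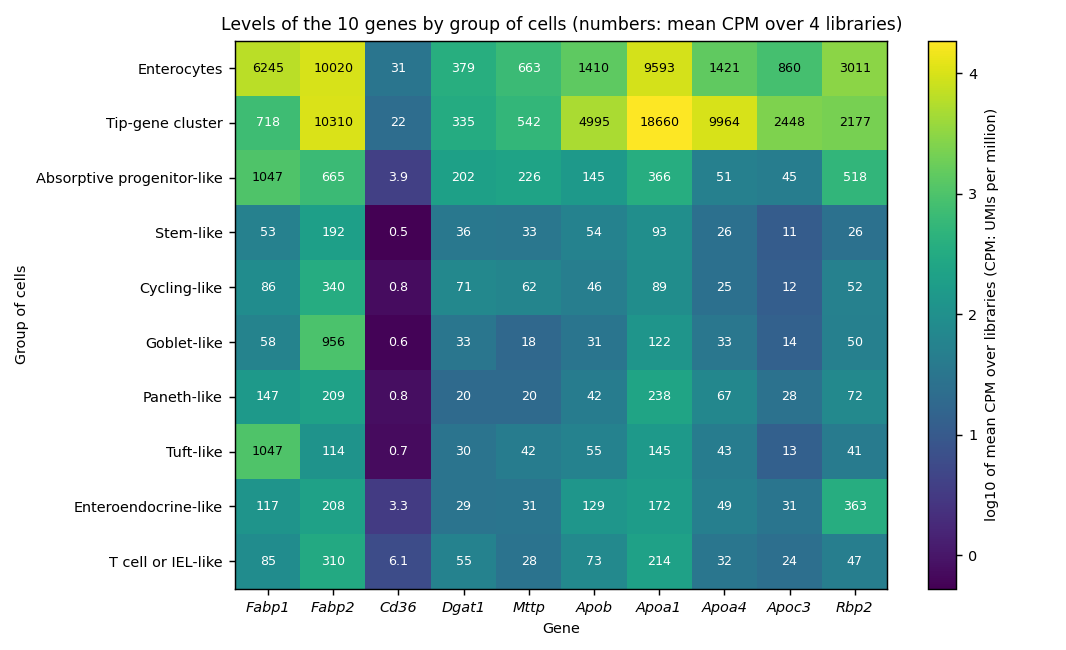
Mean CPM over 4 libraries of each gene (columns) in each group of cells (rows); colour is the log10 of the mean CPM and the printed numbers are the means. Enterocytes and the tip-gene cluster hold the highest levels of every gene except Fabp1, whose mean was 1047 CPM in both progenitor-like and tuft-like cells and 718 CPM in the tip-gene cluster. Its libraries overlapped there, at 161 to 1882, 319 to 2009 and 481 to 931 CPM, and the 2 progenitor-like clusters differed (means of 56.8 and 1629 CPM).

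Enterocytes were ordered along the villus by a score of 7 tip genes over 9 bottom genes, none of them a member or a pathway gene, and divided into 3 zones at limits common to all libraries, set so that the zones held equal shares with the libraries weighted equally. By number of cells they held 2230 (lower), 2033 (middle) and 2073 (upper) of the 6336 enterocytes. Apob, Apoa4, Cd36, Apoa1 and Apoc3 were higher in the upper zone than in the lower zone, and Fabp1 and Rbp2 were lower. Of the cytosolic carriers, Fabp1 and Rbp2 were thus lower in the upper zone and Fabp2 was not called, while 4 genes for proteins of the secreted particle were higher. The direction for Rbp2 depended on the region of the intestine, as given below. The comparison passed the test for 7 of the 10 genes, but 69% of all 9361 genes tested passed it too, so the count alone is not particular to these genes. In the upward direction 5 of 10 passed against 35% of all genes, and in the downward direction 2 of 10 against 33.9%.

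Among the carriers, Fabp1 had 1019 and 1617.5 CPM in the upper zone of mutants 1 and 2 and 446 and 1496 CPM in that of wild types 1 and 2, against 7089 and 11572 CPM in the lower zone of the mutants and 1939 and 13080 CPM in that of the wild types. Every library was lower in the upper zone, and the 4 upper values lay below all 4 lower values, with a log2 ratio of -2.72 ± 0.25 (SE; edgeR quasi-likelihood test, Benjamini-Hochberg adjusted p = 1.51e-08). Fabp2 was not called, with 6414 and 10326 CPM in the upper zone of the mutants and 7204 and 4029 CPM in that of the wild types, against 11572 and 11638 CPM and 7368 and 10704 CPM in the lower zone (log2 ratio -0.61 ± 0.27, adjusted p = 0.0562). Each library was lower in the upper zone, though by little in wild type 1, and DESeq2 called the gene (-0.62, adjusted p = 0.00918). Cd36 had 18.4 and 78.2 CPM in the upper zone of the mutants and 22.6 and 78.2 CPM in that of the wild types, against 17.8 and 29.2 CPM and 8.74 and 39.8 CPM in the lower zone. Its log2 ratio was 1.11 ± 0.18 (adjusted p = 2.92e-05), and mutant 1 showed almost no difference.

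Dgat1 and Mttp, the enzyme and the transfer protein between re-esterification and particle assembly, did not pass the test between zones. Dgat1 averaged 407 ± 68.6 CPM in the upper zone and 370.3 ± 81.2 CPM in the lower zone (SD, n = 4; log2 ratio 0.16 ± 0.15, adjusted p = 0.344). Mttp averaged 641.5 ± 261 CPM in the upper zone and 654 ± 125 CPM in the lower zone (log2 ratio -0.09 ± 0.18, adjusted p = 0.683). Apob, in contrast, had 2177 and 3774 CPM in the upper zone of the mutants and 2508 and 3669 CPM in that of the wild types, against 641 and 957 CPM and 582 and 1083.5 CPM in the lower zone. The upper and lower values did not overlap, and the log2 ratio was 1.91 ± 0.19 (adjusted p = 6.2e-08).

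Of the surface apolipoproteins, Apoa4 had 2463 and 4231 CPM in the upper zone of the mutants and 1509 and 4001 CPM in that of the wild types, against 572 and 974 CPM and 199 and 1769.6 CPM in the lower zone. Each library was higher in the upper zone, with a log2 ratio of 2.08 ± 0.24 (adjusted p = 4.09e-07), although wild type 2 in its lower zone lay above wild type 1 in its upper zone. Apoa1 averaged 12910 ± 2859 CPM in the upper zone and 7711 ± 816 CPM in the lower zone (log2 ratio 0.73 ± 0.26, adjusted p = 0.0191). Apoc3 averaged 1023 ± 420.4 CPM and 739 ± 329 CPM (log2 ratio 0.52 ± 0.20, adjusted p = 0.0257). Leaving out wild type 1 or mutant 2 ended the call of both Apoa1 and Apoc3, with adjusted p of 0.139 and 0.112 for Apoa1 and 0.231 and 0.203 for Apoc3. Without mutant 1 the adjusted p of Apoa1 was 0.0739.

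Rbp2 had 1358 and 2279 CPM in the upper zone of the mutants and 1188 and 1722.5 CPM in that of the wild types, against 2647.5 and 4521 CPM and 1253 and 5818 CPM in the lower zone. All 4 libraries were lower in the upper zone (log2 ratio -0.94 ± 0.24, adjusted p = 0.00191), wild type 1 by the least. With zone and region in 1 model the ratio was -0.47 and no longer passed (adjusted p = 0.206). In that model Fabp2 passed, at -0.68 (adjusted p = 0.0252).

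Cell quality moved along the same axis. Cells of the upper zone had medians of 1754 to 3249.5 UMIs per library, against 6795 to 11756 UMIs in the lower zone. Median mitochondrial shares were 6.76% to 21.4% of UMIs in the upper zone and 7.80% to 9.12% in the lower zone. The summed level of 7 absorptive progenitor markers was 1035 to 3811 CPM in the upper zone, where up to 3 were at 0, and 27060 to 51290 CPM in the lower zone, where at most 1 was at 0. This gap was in part set in advance, since the markers Reg3b and Reg3g were also bottom genes of the score that cut the zones. Reg3b averaged 29010 CPM in the lower and 1428 CPM in the upper zone, and Reg3g 9253 and 1021 CPM. Krt20, an enterocyte marker, was likewise a tip gene of the score. The 23 enterocyte markers, none of them at 0, summed to 16910 to 20690 CPM in the upper zone and 27480 to 32220 CPM in the lower zone, and 8 stem cell markers, of which at most 1 was at 0, to 280.3 to 713 CPM and 151.6 to 282.1 CPM. The summed level of 10 Paneth cell markers, none of them at 0, was 5298 to 12650 CPM in the upper zone and 1415 to 6493 CPM in the lower zone, and that of 9 goblet markers, of which at most 1 was at 0, was 1433 to 7188 CPM and 995 to 3057 CPM. The part of these differences in the villus results was not tested, except that with cells under 15% mitochondrial UMIs only the same 7 genes were called in the same directions, while the ratio of Fabp2 changed sign to 0.17.

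**Figure D2:**
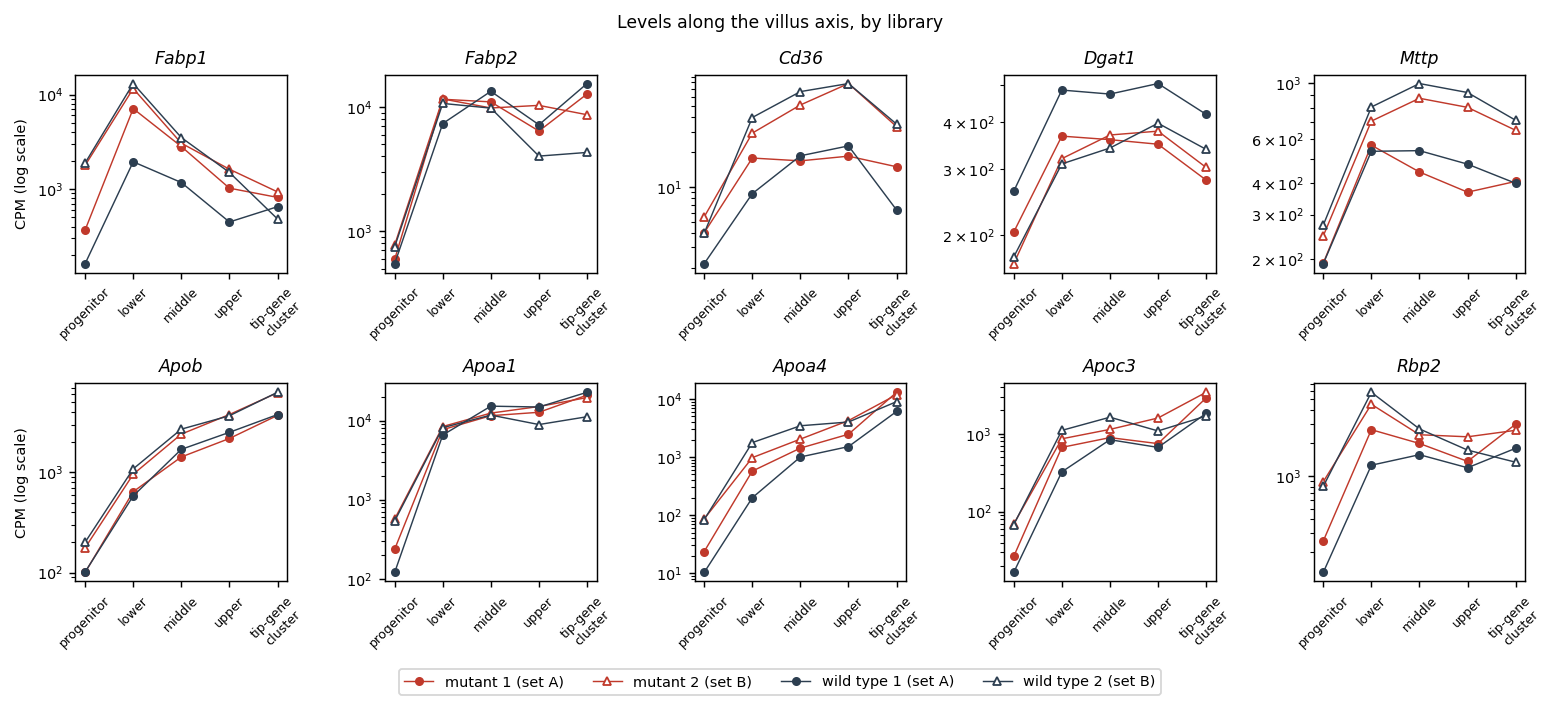
CPM of each gene on a log axis, by library, in absorptive progenitor-like cells, in the lower, middle and upper villus zone of enterocytes and in the tip-gene cluster; filled circles are set A, open triangles set B, red the mutants and dark blue the wild types. Fabp1 peaks in the lower zone in all 4 libraries, whereas Apob and Apoa4 climb to the tip-gene cluster, where Apoa4 reached 6080 to 12995 CPM.

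The tip-gene cluster, whose cells were grouped without these genes, held higher levels of the apolipoproteins than the upper zone, given here with no test. Apoa4 had 12995 and 11810 CPM there in mutants 1 and 2 and 6080 and 8972 CPM in wild types 1 and 2, against an upper-zone range of 1509 to 4231 CPM. Apob had 3700 to 6289 CPM against 2177 to 3774 CPM, Apoc3 1686 to 3403 CPM against 668 to 1592 CPM, and Apoa1 11206 to 22833 CPM against 8924 to 15089 CPM. Fabp1 was lower than in the upper zone in 3 of 4 libraries, with 814 and 931 CPM in the mutants and 648 and 481 CPM in the wild types. Counting this cluster as enterocytes left the same 6 genes called along the villus and took Rbp2 past the threshold (log2 ratio -0.67, adjusted p = 0.0629).

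Of the 56 other genes of the pathway, 50 could be tested along the villus, and 18 rose and 20 fell, a share close to that of all genes. Among uptake and activation genes, 5 of 8 rose and 3 fell, with Acsl3, an acyl-CoA synthetase, at a log2 ratio of 3.95 ± 0.19 (adjusted p = 7.56e-12) and Dbi, an acyl-CoA binding protein, at -2.23 ± 0.20 (adjusted p = 1.11e-08). Among re-esterification genes 4 of 9 rose and 3 fell. Lpin2, a phosphatidate phosphatase, rose (3.13 ± 0.16) and Mogat2, the monoacylglycerol acyltransferase, fell (-1.31 ± 0.13). Among 12 chylomicron assembly genes 3 rose and 8 fell, with Mia2, which helps large cargo leave the endoplasmic reticulum, at 1.60 ± 0.14 and Tm6sf2, which acts in lipoprotein lipidation, at -1.46 ± 0.13. Among 6 retinol genes 1 rose and 2 fell, Rdh7, a retinol dehydrogenase, by -3.62 ± 0.18 and Aldh1a1, which makes retinoic acid, by -2.49 ± 0.16. Of 5 lipid droplet genes 2 rose and 1 fell, with Cidec at 2.88 ± 0.19 and Plin2, a droplet coat protein, at -1.47 ± 0.16. Of 10 regulators 3 rose, among them Creb3l3 (1.64 ± 0.15), a membrane-bound activator of lipid genes, and Hnf4a (0.86 ± 0.12), and 3 fell.

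Along the length of the intestine, enterocytes were ordered by a score of 7 proximal genes over 7 distal genes and divided in the same way into 3 regions of 1855 (distal), 2159 (middle) and 2322 (proximal) cells. One proximal landmark, Cybrd1, was nearly undetected. Fabp1, Cd36, Rbp2, Apoa4, Apoc3, Mttp and Dgat1 were higher in the proximal region than in the distal region, and no member was lower. That is 7 of 10 genes called upward, against 12.3% of all 9282 genes tested. Of the 10 genes, 8 had a positive ratio and the median was 1.28 on the log2 scale, against 0.01 over all genes. Since the list was chosen with earlier results of these data known, the count and the median are descriptions and no independent test of the list.

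Fabp1 had 9859.8 and 14938 CPM in the proximal region of mutants 1 and 2 and 3238 and 16456 CPM in that of wild types 1 and 2, against 708 and 833 CPM and 143 and 631 CPM in the distal region. The regions did not overlap, and the log2 ratio was 4.34 ± 0.23 (edgeR, adjusted p = 5.76e-10). Cd36 had 33.7 and 67.5 CPM proximally in the mutants and 27.3 and 78.8 CPM in the wild types, against 2.56 and 7.65 CPM and 1.45 and 13.9 CPM distally, again without overlap (3.04 ± 0.21, adjusted p = 1.07e-08). Rbp2 had 3877 and 5674 CPM in the mutants and 2203 and 7439.7 CPM in the wild types, against 692 and 1186 CPM and 509 and 972 CPM (2.50 ± 0.19, adjusted p = 2.98e-08). These 3 genes had the largest ratios among the members, each without overlap between regions. The lack of overlap was not particular to them. The lowest proximal and highest distal libraries were at 889.5 and 602.5 CPM for Apoa4, 699.8 and 518.6 CPM for Apoc3, and 666.9 and 547.9 CPM for Mttp.

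Apoa4 had 1409.9 and 2205 CPM proximally in the mutants and 889.5 and 3853 CPM in the wild types, against 368 and 603 CPM and 247 and 494 CPM distally (log2 ratio 2.20 ± 0.19, adjusted p = 1.52e-07). Its neighbour Apoc3 averaged 1093 ± 356 CPM proximally and 376 ± 160.4 CPM distally (1.63 ± 0.16, adjusted p = 6.35e-07). Apoa1, the third gene of the cluster, did not pass the test, with 9063 ± 386 CPM proximally and 9703 ± 1060 CPM distally (-0.05 ± 0.20, adjusted p = 0.904). Genes next to each other on chromosome 9 therefore had unequal ratios between regions. Mttp averaged 823 ± 178 CPM and 443 ± 94.3 CPM (0.94 ± 0.13, adjusted p = 3.7e-05), whereas Apob, its partner, averaged 1421 ± 479 CPM and 1408 ± 262 CPM (0.02 ± 0.17, adjusted p = 0.967). Dgat1 averaged 417 ± 103 CPM and 323 ± 57.3 CPM (0.40 ± 0.12, adjusted p = 0.0231), a call that was lost without wild type 1, mutant 1 or mutant 2 (adjusted p of 0.199, 0.0555 and 0.101).

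Fabp2 was lower in the proximal region in each library, with 8964 and 7912 CPM in the mutants and 6186 and 8221 CPM in the wild types, against 11055 and 12296 CPM and 7987 and 10548 CPM in the distal region. It did not pass the edgeR test (log2 ratio -0.37 ± 0.20, adjusted p = 0.203), but passed in DESeq2 (-0.38, adjusted p = 0.0176) and with zone and region in 1 model (-0.87, adjusted p = 0.0163). The paralogs Fabp1 and Fabp2 thus had ratios of opposite sign between regions. With cells under 15% mitochondrial UMIs only, the ratio of Fabp2 was 0.25. Median mitochondrial shares were 14.4% to 20.9% of UMIs in the proximal region and 2.36% to 5.35% in the distal region, and their part in the results was otherwise not tested.

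Of 50 other pathway genes tested between regions, 14 were higher and 6 lower in the proximal region, against 12.3% of all genes higher and 12.6% lower. In chylomicron assembly 4 of 12 were higher, with Apoc2, the activator of lipoprotein lipase, at a log2 ratio of 2.06 ± 0.19 (adjusted p = 2.58e-07) and P4hb, the protein that forms a complex with Mttp, at 0.90 ± 0.13. In re-esterification 4 of 9 were higher and 3 lower, and Agpat3 (1.93 ± 0.14) and Soat2, which esterifies cholesterol (0.63 ± 0.12), were among the higher ones. In retinol handling Rdh7 was higher (1.38 ± 0.14) and Bco1, which cleaves carotene, lower (-1.14 ± 0.38). In uptake and activation 2 of 8 were higher and 1 lower, Acsl5 at 0.72 ± 0.13 and Acsl3 at -1.75 ± 0.26. Of 5 lipid droplet genes Cidec (0.59 ± 0.17) and Plin2 (0.49 ± 0.14) were higher, and of 10 regulators Creb3l3 was higher (0.76 ± 0.14) and Hnf4a lower (-0.33 ± 0.12).

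The villus pattern itself depended on the region. The ratio of the upper over the lower zone was smaller in the proximal than in the distal region for 6 of the 10 genes (Rbp2, Fabp1, Apoa4, Apoc3, Apoa1 and Fabp2), as tested by the interaction of zone and region on sums for each library, zone and region. Of all 7648 genes tested, 2.26% passed, 1.75% in this direction and 0.51% in the other. Fabp1 and Fabp2 fell up the villus in the proximal region, Rbp2 fell in the proximal and rose in the distal region, Apoa4 rose in both regions with the larger ratio in the distal one, and Apoc3 and Apoa1 rose in the distal region and did not pass the test in the proximal region. Within the proximal region 6 of 10 genes passed the zone test (68.4% of 6978 genes), 3 in each direction, and within the distal region 5 of 9 passed (63.8% of 6632 genes), all upward. Of all genes, 34.6% passed upward and 33.9% downward in the proximal region, and 29.6% upward and 34.2% downward in the distal region. These tests were chosen after the levels by zone and region had been seen, so they describe these libraries. The interaction model had a term for each library but none for a library's own zone or region ratio. It thus took the sums of a library as independent once its level was removed, which can make p-values too small.

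Rbp2 in the proximal region had 1556 and 2158 CPM in the upper zone of mutants 1 and 2 and 1344 and 1926 CPM in that of wild types 1 and 2, against 4128 and 7084 CPM and 2737 and 10170 CPM in the lower zone, without overlap (log2 ratio -1.71 ± 0.19, adjusted p = 1.09e-07). In the distal region it had 668 and 2224 CPM in the upper zone of the mutants and 740 and 1358 CPM in that of the wild types, against 669 and 1024 CPM and 321 and 728 CPM in the lower zone. There 3 of 4 libraries were higher in the upper zone and mutant 1 was level (0.76 ± 0.22, adjusted p = 0.00191). The difference between the ratios was -2.60 ± 0.32 (adjusted p = 5.9e-05).

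Fabp1 in the proximal region had 1169 and 1969 CPM in the upper zone of the mutants and 689 and 1832 CPM in that of the wild types, against 11690 and 20060 CPM and 4761 and 23800 CPM in the lower zone (log2 ratio -3.36 ± 0.20, adjusted p = 8.15e-12). In the distal region its level was low throughout, 213 to 789 CPM in the upper zone and 105.5 to 1007 CPM in the lower zone, and did not pass the test (-0.55 ± 0.25, adjusted p = 0.0503). The difference was -2.83 ± 0.42 (adjusted p = 0.000297). Fabp2 fell in the proximal region in each library (-1.37 ± 0.19, adjusted p = 2.48e-06), with 2480 to 5277 CPM in the upper zone and 7237 to 10840 CPM in the lower zone. In the distal region it ran from 5194 to 20020 CPM in the upper zone and from 7697 to 13390 CPM in the lower zone, with mutant 1 lower and the other 3 libraries higher in the upper zone (-0.09 ± 0.29, adjusted p = 0.79).

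Apoa4 in the distal region had 1006 and 2420 CPM in the upper zone of the mutants and 686 and 1925 CPM in that of the wild types, against 152 and 210.2 CPM and 23.1 and 161 CPM in the lower zone (log2 ratio 3.52 ± 0.24, adjusted p = 3.27e-18). In the proximal region it had 3180 and 4649 CPM in the upper zone of the mutants and 1698 and 4584 CPM in that of the wild types, against 830.3 and 1628 CPM and 479 and 3320 CPM in the lower zone (1.37 ± 0.20, adjusted p = 3.27e-06). All 4 libraries were higher in the upper zone in both regions, and the difference was -2.26 ± 0.36 (adjusted p = 0.00056). Apoc3 and Apoa1 rose in the distal region (1.28 ± 0.22 and 1.24 ± 0.27, adjusted p = 1.24e-06 and 7.07e-05) and did not pass the test in the proximal region (-0.08 ± 0.16 and 0.09 ± 0.17, adjusted p = 0.666 and 0.675). Their differences were -1.55 ± 0.32 and -1.27 ± 0.29 (adjusted p = 0.00527 and 0.0114).

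Apob rose in both regions, by 1.56 ± 0.16 in the proximal and 2.13 ± 0.23 in the distal region, and the difference of -0.67 ± 0.25 did not pass the test in edgeR (adjusted p = 0.156) but did in DESeq2 (-0.66, adjusted p = 0.038). Mttp and Dgat1 passed in neither region. Cd36 rose in the proximal region (0.99 ± 0.20, adjusted p = 0.000161), in all 4 libraries, and had too few UMIs to be tested alone in the distal region. Of 50 other pathway genes 7 passed the interaction, all with a smaller ratio in the proximal region: Creb3l3 (-1.43 ± 0.23), Prap1, Cideb, Cidec, Apoc2, Tm6sf2 and Dgat2. These names are the complete set of calls and were taken after their values were seen.

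Each sum in this comparison rested on 50 to 420 cells. Upper-zone cells had medians of 1472 to 2934 UMIs and 16.9% to 23.1% mitochondrial UMIs in the proximal region, and 1962 to 3629 UMIs and 2.10% to 5.69% in the distal region. With cells under 15% mitochondrial UMIs only, Rbp2 (-2.13), Fabp1 (-1.79) and Apoa4 (-2.21) were still called, and Apoc3 (-0.87, adjusted p = 0.366), Apoa1 (-0.99, adjusted p = 0.152) and Fabp2 (-0.36, adjusted p = 0.838) were not. With zones and regions cut within each library, Rbp2 (-1.88) and Apoa4 (-2.06) were called, Fabp1 (-1.93, adjusted p = 0.119) and the other 3 genes were not, and calls over all genes numbered 29 in place of 173. Rbp2, Fabp1 and Apoa4 were called without any 1 library, while the call of Fabp2 and Apoa1 was lost without wild type 1, wild type 2 or mutant 2, and that of Apoc3 without wild type 1 or wild type 2.

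**Figure D3:**
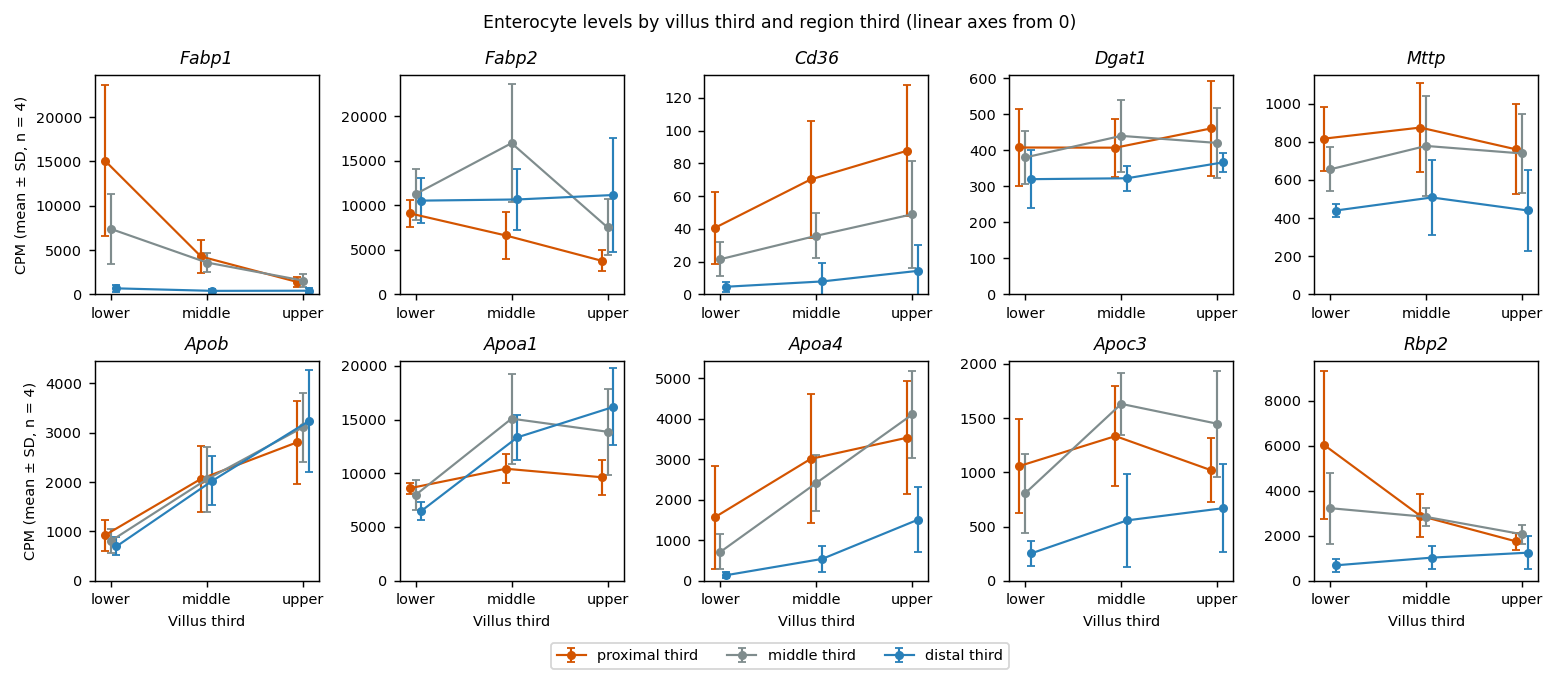
Mean CPM ± SD over 4 libraries on linear axes, by villus zone (x axis) in enterocytes of the proximal, middle and distal region. Fabp1 and Rbp2 are highest in the lower proximal cells (15080 and 6029 CPM) and lower in the cells above them, whereas Apob is highest in the upper zone of both the proximal and the distal region.

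**Figure D4:**
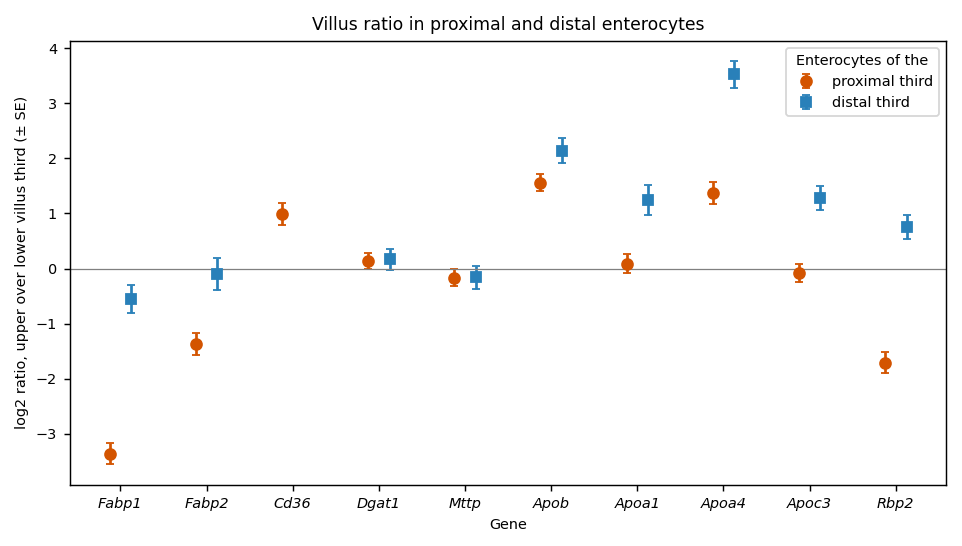
Log2 ratio of the upper over the lower villus zone from edgeR, for enterocytes of the proximal region (circles) and of the distal region (squares). The SE was derived from the ratio and the F statistic of its test. Rbp2 lies at -1.71 in the proximal and at 0.76 in the distal region; Cd36 has no distal point because it was not tested there.

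Over single enterocytes thinned to 1500 UMIs each, the members most correlated with each other were Fabp1 and Rbp2, with a mean Pearson r of 0.707 over libraries (0.57 to 0.762; 0.647 without thinning), and Fabp2 and Apoa1, with 0.636 (0.572 to 0.658). Thinning left out 37 to 277 shallower cells per library. Over 39 sums for each class and library, the genes most like Fabp1 among 3295 genes were Spink1 (r = 0.909), Clic5 and Erich4, those most like Rbp2 were Clec2e (0.95), Cyp2d26 and Slc27a4, and those most like Fabp2 were Sprr2a3 (0.962), Rfk and Pls1. Apoa4 (0.966) and Ggt1 were among the genes most like Apoa1, and those most like Apoa4 were Clca4a (0.968), Apoa1 and Apoc3. Apob was most like Apoc3 (0.96), 2010003K11Rik and Slc27a4, and Apoc3 was most like 2010003K11Rik (0.964), Slc27a4, a fatty acid transport protein, and Apob. Mttp was most like Cyp3a13 (0.942), Slc26a6 and 4931406C07Rik, Dgat1 like Xpnpep1 (0.947), Abcg5 and Serpinb6a, and Cd36 like Akr1b7 (0.936), Unc93a2 and Ceacam20. The points share libraries and depth and fall into absorptive and other classes, so these values describe likeness only.

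The study's main comparison was TrnA mutant against wild type. In enterocytes none of the 10 genes passed the test, and neither did any of the 11579 genes tested (0%), with 144 genes at an unadjusted p under 0.05 in edgeR and 0 called by DESeq2. For 7 of the 10 genes both libraries of set B had higher levels than both of set A. The share of all genes with this order is not given here, so the count cannot be read as particular to these genes. Fabp1 had 5466 and 8719.5 CPM in mutants 1 and 2, against 1455.5 and 9339 CPM in wild types 1 and 2. Wild type 1 stood far below the other 3 libraries, and the log2 ratio of mutant over wild type was 0.39 ± 0.79 (adjusted p = 0.9998), with 1.91 within set A and -0.10 within set B. Rbp2 had 2350.5 and 3838 CPM in the mutants, against 1313 and 4542 CPM in the wild types (0.09 ± 0.60; 0.84 within set A and -0.24 within set B). Apoa4 had 982 and 1591 CPM, against 653 and 2460.2 CPM (-0.27 ± 0.62; 0.59 and -0.63 within the sets).

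Fabp2 was the only one of the 10 whose genotypes did not overlap, with 10803 and 11138 CPM in the mutants, against 8765 and 9382 CPM in the wild types. Its log2 ratio was 0.29 ± 0.30 (adjusted p = 0.9998), 0.30 within set A and 0.25 within set B. The share of all genes whose genotypes separate is not given here, so the lack of overlap is a description only. Apob was lower in the mutant of both sets, with 993 and 1588 CPM in the mutants, against 1235 and 1824 CPM in the wild types, but the genotypes overlapped across sets (-0.22 ± 0.37). Mttp had 517 and 749 CPM in the mutants, against 525 and 859 CPM in the wild types (-0.11 ± 0.36). Dgat1 had 363 and 336 CPM, against 487 and 330.1 CPM (-0.21 ± 0.23), Apoa1 had 9105 and 10029 CPM, against 10304 and 8933.5 CPM (0.01 ± 0.30), Apoc3 had 722 and 1006 CPM, against 515 and 1195.5 CPM (0.02 ± 0.44), and Cd36 had 17.7 and 39.5 CPM, against 13.9 and 51.3 CPM (-0.16 ± 0.63). The SE of the 10 ratios ran from 0.23 to 0.79 on the log2 scale. With 2 libraries per genotype and adjustment over 11579 genes, a difference had to be several times its SE to pass. Differences well above these SE values could therefore have been missed. Of the 51 other pathway genes tested, 0 passed and 22 had a positive ratio.

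**Figure D5:**
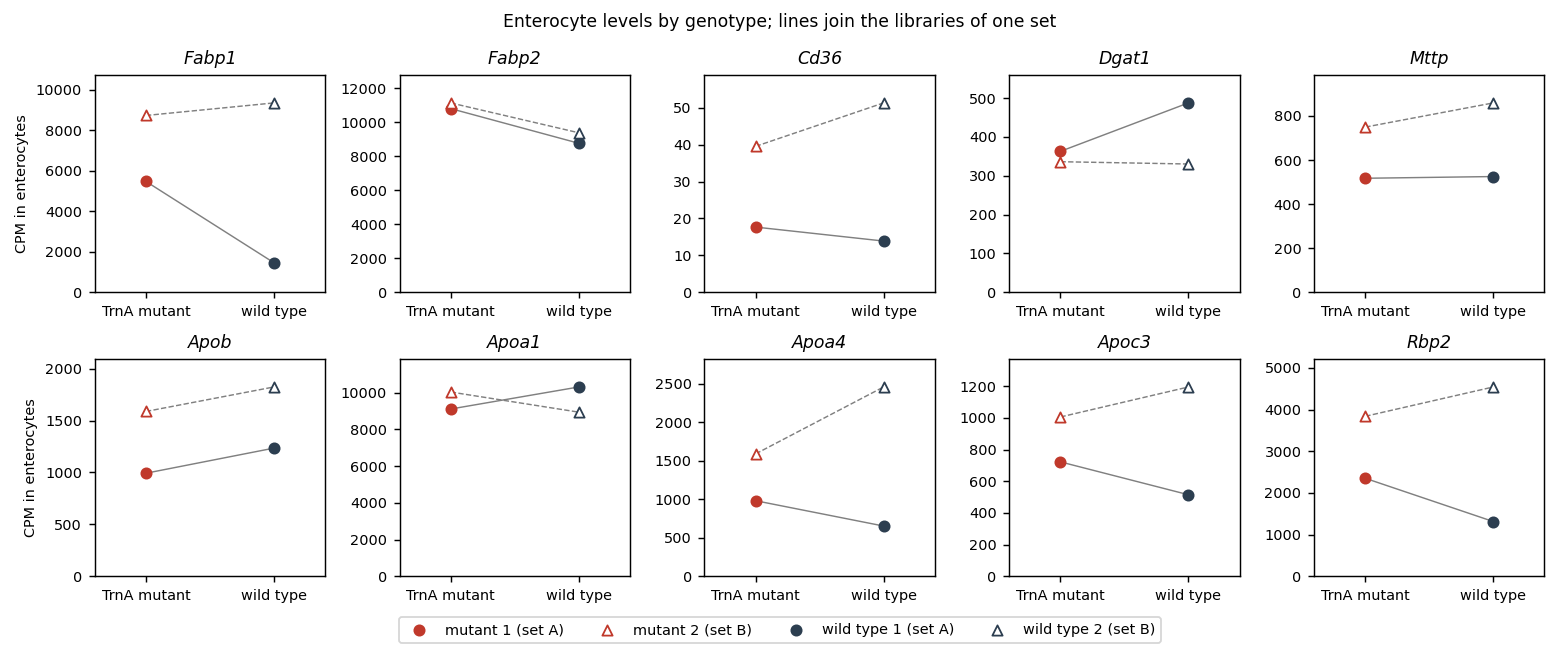
CPM of each gene in enterocytes of TrnA mutant (left) and wild type (right) libraries on linear axes from 0; lines join the libraries of 1 set, solid for set A and dashed for set B. For Fabp1, Rbp2, Apoa4, Apob, Apoc3, Mttp and Cd36 both libraries of set B lie above both of set A, and only for Fabp2 do both mutants lie above both wild types. The share of all genes with either order is not given, and none of these genes passed the genotype test.

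The genotypes were also compared within the lower, middle and upper zones and within the proximal and distal regions. In each of these 5 comparisons 0 of the 10 genes and 0% of all genes passed, with 95 to 230 genes of all tested at an unadjusted p under 0.05 and 0 called by DESeq2. Leaving out wild type 2, however, made Fabp1 (2.33, adjusted p = 0.000797), Apoa4 (2.02, adjusted p = 0.00222) and Rbp2 (1.58, adjusted p = 0.0323) pass in the lower zone, and Fabp1 pass in the proximal (1.97, adjusted p = 0.00837) and distal regions (2.50, adjusted p = 0.0335); these fits set both mutants against wild type 1 alone, whose spread is assumed to be that of the mutants. The test of whether the villus ratio or the region ratio differed between genotypes was passed by 0 of the 10 genes, with adjusted p from 0.964 (Mttp) upward for the villus ratio and from 0.9996 upward for the region ratio. It was passed by 0% of all genes, with 521 and 324 genes at an unadjusted p under 0.05 in edgeR and 0 called by DESeq2.

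Over all epithelial cells none of the 10 genes passed either (0% of 16729 genes; 113 at an unadjusted p under 0.05 in edgeR, 7 called by DESeq2). The sums over all enterocytes also carry differences in where the cells came from. The upper zone held 28.0% and 26.9% of enterocytes in mutants 1 and 2, against 39.0% and 39.4% in wild types 1 and 2, without overlap, and the lower zone held 36.9% and 41.8%, against 23.0% and 31.6%. The exact two-sided permutation test gave p = 0.333 for both, which is the smallest it can give with 2 libraries per genotype. The lower-zone difference of 12.09 percentage points was 7.78 without wild type 1. With cells under 15% mitochondrial UMIs only it was 6.76, with overlapping shares of 30.4% and 43.1% in the mutants, against 17.0% and 42.9% in the wild types (exact permutation p = 0.667). The distal region held 47.7% and 25.0% in the mutants, against 41.2% and 19.5% in the wild types (exact permutation p = 0.667), so that it was larger in both libraries of set A than in those of set B. Whether these shares come from the tissue or from how cells were released cannot be told apart.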

How the data were processed

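The authors deposited UMI counts per gene and cell barcode, per the file headers from Cell Ranger, version 7.0.0 for set A and version 7.1.0 for set B. The build was mm10, per the submitters' processing notes. The sources used here do not state how overlapping genes were counted. The 4 libraries held 99772712 to 127796409 UMIs in 5974 to 13805 barcodes. Barcodes were kept from 500 genes and 1000 UMIs upward if mitochondrial UMIs stayed under 30%, and Scrublet's highest scores were removed as doublets at 0.8% per 1000 barcodes, since its own threshold marked between 0% and 15.9% of cells. Cells were clustered in scanpy 1.11.5 (2000 variable genes, 50 components, 15 neighbours, resolution 1) without the 10 genes or the pathway genes, and named from at least 3 markers among 50 leading genes.

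Counts were summed per library and cell group and tested with edgeR 4.0.16 (R 4.3.3; quasi-likelihood test, TMM scaling, low-count filter, Benjamini-Hochberg adjustment over all genes, called at adjusted p under 0.05). Zones and regions came from marker scores with common limits, and 9.80% and 9.82% of enterocytes lay within 0.1 log2 units of one. Models that held both zone and region had a term for each library but none for its own zone or region ratio. DESeq2 1.42.0, other scaling and filters, the set as a term, other cell limits, zones, landmarks and clusters, and each library left out were tried as alternatives. The SE beside an edgeR ratio is the size of that ratio divided by the square root of the F statistic of its test. The code was tested on simulated data. Genes named are the 10, the pathway genes by list, and the 3 most correlated genes of each, of which 1 is not reported here. The replicate numbers were given in accession order. The members and lists were chosen with earlier results of these data known, and the tests of zone within and by region were added after levels had been seen. The authors' counts carry free RNA, which was not subtracted.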

Additional observations from a re-analysis of the deposited data

Results flagged for a closer look

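The ratio of the upper over the lower villus zone differed between the proximal and the distal region for 6 of the 10 genes, by the test of the interaction on sums for each library, zone and region (edgeR, adjusted over 7648 genes, of which 2.26% passed). The differences, proximal minus distal, were -2.597 for Rbp2, -2.829 for Fabp1, -2.262 for Apoa4, -1.545 for Apoc3, -1.27 for Apoa1 and -1.466 for Fabp2 on the log2 scale. The same 4 libraries give both regions, and mitochondrial share and UMIs per cell differ between these groups of cells; their part was not tested beyond the limit of 15% mitochondrial UMIs, under which Rbp2, Fabp1 and Apoa4 were called. With zones and regions cut within each library, Rbp2 and Apoa4 were called and Fabp1 was not. The interaction model took the sums of a library as independent once its level was removed, so its p-values can be too small. No group held 4 samples of 1 genotype, so no library was tested as standing apart within its group.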

How the results depend on the processing

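Along the villus, Fabp1, Apoa4, Apob and Cd36 stayed called in the same direction under every alternative run, and between regions Fabp1, Cd36, Rbp2, Apoa4, Apoc3 and Mttp did. Genes called between regions numbered 3885 with cells under 15% mitochondrial UMIs and 1478 with clusters centred within libraries, against 2310. For zone by region they numbered 272 with no filter on low counts, 72 under 15% mitochondrial UMIs, 29 with zones cut within each library, 89 with the tip-gene cluster included and 55 with centred clusters, against 173. Members called there were 3 under 15% mitochondrial UMIs (Rbp2, Fabp1 and Apoa4) and 2 with zones cut within each library (Rbp2 and Apoa4), against 6. The causes were not tested.

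For genotype, where 0 genes were called, no filter on low counts gave 25 in enterocytes, 35, 7 and 8 in the lower, middle and upper zones, 13 and 15 in the proximal and distal regions, and 10 for each interaction; DESeq2 gave 7 over all cells and zones within libraries gave 1 for genotype by villus zone. The difference in the upper-zone share was -10.51 percentage points under 15% mitochondrial UMIs, against -11.79, and that in the lower-zone share was 6.76, against 12.09. With the set as a replicate block, genotype calls were 9 over all cells, 0 in enterocytes, 35, 1 and 0 in the lower, middle and upper zones, and 22 and 1 in the proximal and distal regions, with 0 of the 10 genes in each. Of the 50 other pathway genes tested in the proximal region, 1 passed in that model, a retinol handling gene that was lower in the mutants. Deviations from the group means correlated between libraries of 1 set (0.642 over all cells, 0.445 in enterocytes), but there were only 2 sets, and the labels do not pair a mutant with a wild type library.

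Leaving out 1 library at a time gave 0 to 7 genotype calls in enterocytes, 1 to 44 in the lower and 0 to 6 in the upper zone, 0 to 42 in the proximal and 0 to 65 in the distal region, 0 to 38 and 2 to 52 for genotype by villus zone and by region, 1279 to 2505 between regions, and 44 to 134 for zone by region. Members called were 0 to 3 in the lower zone, 0 to 1 in the proximal and 0 to 1 in the distal region, and 3 to 6 for zone by region. Log2 ratios by genotype in enterocytes then ran from -0.51 to 0.35 for Mttp, -1.01 to 1.17 for Cd36, -0.40 to 2.37 for Fabp1, -0.16 to 0.17 for Apoa1, -0.48 to 0.82 for Apoc3, -0.94 to 1.06 for Apoa4, -0.56 to 1.32 for Rbp2, -0.71 to 0.15 for Apob and -0.42 to 0.052 for Dgat1. Other ratios that changed sign were those of Mttp along the villus (-0.21 to 0.02), Apoa1 (-0.086 to 0.0056) and Apob (-0.17 to 0.093) between regions, Apoa1 (-0.016 to 0.22) and Apoc3 (-0.23 to 0.092) along the proximal villus, Fabp2 (-0.40 to 0.40) and Mttp (-0.33 to 0.12) along the distal villus, and Mttp (-0.28 to 0.062) and Cd36 (-0.92 to 0.024) for zone by region.

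Under 15% mitochondrial UMIs, signs changed for Fabp2 along the villus (0.17) and between regions (0.25), Apoa1 (0.056) and Apob (-0.37) between regions, Apoc3 (0.55) and Dgat1 (-0.0086) along the proximal villus, and Mttp (0.12) and Cd36 (0.055) for zone by region. With no filter they changed for Dgat1 along the villus (-0.056) and the proximal villus (-0.072), Apob between regions (-0.021) and Apoa1 along the proximal villus (-0.13). Zones cut within libraries changed Apob between regions (-0.080) and Apoc3 along the proximal villus (0.019), and other landmarks changed Apob between regions (-0.044), Apoc3 along the proximal villus (0.20), Fabp2 along the distal villus (0.089) and Dgat1 for zone by region (0.064). With the tip-gene cluster they changed for Apoc3 along the proximal villus (0.31) and Fabp2 (0.22) and Mttp (0.13) along the distal villus, and with centred clusters for Apoa1 by genotype (-0.025), Dgat1 along the proximal villus (-0.036) and Fabp2 (0.062) and Mttp (0.12) along the distal villus.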
